A study of Homo sapiens with 5 samples.

Results

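The binding of the transcription factor MYC was set beside that of MED17 and MED30, a pair of Mediator subunits, in unperturbed MIA PaCa-2 cells, an established line from a human pancreatic cancer. Members are all peaks of the 3 lists on chromosomes 1 to 22 and X that lie outside stretches of more than 2 Mb without an annotated RefSeq gene. They number 33029 of the 39543 peaks in these lists, in a series of 5 lists with 51322 peaks. By protein, 10440 of 14331 MYC peaks (72.8%), 11797 of 13172 MED17 peaks (89.6%) and 10792 of 12040 MED30 peaks (89.6%) were members. The rule removed peaks in 27 stretches. The shortest of these was 2.02 Mb long, and the longest gene-free stretch kept was 1.28 Mb.

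Protein-bound DNA was measured by chromatin immunoprecipitation and sequencing (ChIP-seq) of paired 100 bp reads, with 1 library for each protein from the same parental line under normal culture. Fixation was not the same. For MED17 and MED30 the cells received 2 mM disuccinimidyl glutarate, a protein-to-protein crosslinker, during 20 min, followed by formaldehyde at 1% during 10 min. For MYC they received the formaldehyde step alone. A difference between MYC and Mediator therefore cannot be told apart from a difference in fixation, and MED17 against MED30, which were fixed alike, served as the reference. With 1 library each no test across samples exists. Intervals are exact (Clopper-Pearson) 95% intervals for shares and order-statistic 95% intervals for medians, and they cover counting error within these libraries only.

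MYC binds DNA as a dimer with MAX at E-boxes, of which CACGTG is the preferred form, and is found at the promoters of many active genes, including those for ribosome production and metabolism. Mediator is a large complex that transmits signals from transcription factors to RNA polymerase II. MED17 belongs to its head module, and MED30 is a subunit found in metazoan Mediator.

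The deposited fold enrichment of a peak is the fragment pileup at its summit over the local background. It was used for ranking within a list only, as an authors' value without error. From fold and p, the lowest local background (a relative depth, set by how many fragments there are and how long) was 2.56 fragments for MYC, 1.60 for MED17 and 1.65 for MED30. The median summit pileup was 22, 23 and 21 fragments, the median fold 4.40, 4.97 and 4.80, and the median width 507, 786 and 662 bp. All 3 lists began at a q of 0.05. Over all 19974 protein-coding genes, 46.6% had none of the 3 proteins at the start, 32.0% had all 3 and 7.83% had both subunits without MYC. None of 15 acinar marker genes carried any of the 3 proteins at its start, and 12 of 14 immune and 13 of 15 fibroblast and endothelial marker genes had none. Of 15 epithelial and ductal marker genes, 9 had none (60%), EPCAM and CDH1 among them, and 2, MUC1 and KRT18, had all 3 (13.3%). SOX9 and KRT19 had both subunits without MYC, KRT8 had MED30 alone and CLDN4 had MED17 alone. Of 15 islet marker genes, 11 had none (73.3%). Of 19 mesenchymal genes, 8 had none (42.1%), 7 had both subunits without MYC (36.8%) and 3, VIM, SNAI1 and S100A4, had all 3 (15.8%). TGFBI had MYC with MED30. A peak is not a measure of expression.

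Sequences under some of the strongest summits are printed as examples and do not stand for the lists. They could be read only where the window lay in promoter sequence, which held for 19.1% of MYC and 23.2% of MED30 members. Each window below spans 101 bases, 50 on each side of a summit. It was read 5′ to 3′ on the strand of the gene named, from the RefSeq promoter table of GRCh38.p14, with at most 30 bases past an annotated start. Capitals mark the canonical E-box CACGTG, the TATA motif TATAAA and the CCAAT motif on either strand, so that TTTATA and ATTGG are the last pair read on the other strand. The first 4 are the strongest MYC summits in these promoter windows whose peak overlapped both a MED17 and a MED30 peak, at PRDX4 (a peroxiredoxin), FPGS (folylpolyglutamate synthase), the locus LOC124900276 and AIMP2 (a scaffold of the tRNA synthetase complex).
PRDX4, chrX:23667383-23667483, plus strand: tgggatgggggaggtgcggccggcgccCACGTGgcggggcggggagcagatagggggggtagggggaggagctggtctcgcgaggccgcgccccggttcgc
FPGS, chr9:127803039-127803139, plus strand: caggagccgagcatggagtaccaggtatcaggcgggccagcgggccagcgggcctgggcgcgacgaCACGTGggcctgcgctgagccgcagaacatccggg
LOC124900276, chr9:136728243-136728343, minus strand: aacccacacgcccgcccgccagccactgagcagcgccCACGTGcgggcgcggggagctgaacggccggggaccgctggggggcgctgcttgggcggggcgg
AIMP2, chr7:6009428-6009528, plus strand: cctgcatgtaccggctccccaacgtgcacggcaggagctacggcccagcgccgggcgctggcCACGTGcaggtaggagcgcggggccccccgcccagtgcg

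Each of these 4 windows held 1 E-box. The MYC fold was 16.7 at PRDX4, 15.2 at FPGS, 14.7 at LOC124900276 and 13.7 at AIMP2. The overlapping MED17 peaks had a fold of 5.46, 7.39, 5.02 and 5.68, and the MED30 peaks 7.43, 5.73, 6.42 and 6.70. These MED17 and MED30 values lay above the medians of their lists but far below their highest values, 19.5 and 20.1.

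The next 3 are the strongest MYC summits in promoter windows whose peak overlapped neither subunit, at TBL1X (a corepressor subunit), SLC12A9 (a cation-chloride cotransporter family member) and WIZ (a zinc finger protein).
TBL1X, chrX:9463177-9463277, plus strand: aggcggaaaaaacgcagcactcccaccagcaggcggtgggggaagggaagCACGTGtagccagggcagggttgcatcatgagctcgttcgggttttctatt
SLC12A9, chr7:100852489-100852589, plus strand: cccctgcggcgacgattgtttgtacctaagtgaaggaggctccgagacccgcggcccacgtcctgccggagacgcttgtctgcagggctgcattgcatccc
WIZ, chr19:15432779-15432879, minus strand: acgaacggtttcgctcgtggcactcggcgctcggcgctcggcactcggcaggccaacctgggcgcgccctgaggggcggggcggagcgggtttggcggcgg

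The TBL1X window held an E-box, and the other two held none of the 3 motifs. MYC fold was 10.9 at TBL1X, 8.22 at SLC12A9 and 8.16 at WIZ. All 3 genes had a Mediator peak elsewhere within 1 kb of an annotated start, so the absence of Mediator here concerns the peak and not the gene.

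The last 6 windows are centred on MED30 summits. H4C15 (a histone H4 gene), ARL15 (a small GTPase) and KLF2 (a Krüppel-like transcription factor) had the strongest MED30 peaks in promoter windows that overlapped MED17 and no MYC. EIF4A2 (a translation initiation helicase), METTL3 (the RNA adenosine methyltransferase) and H2AX (a histone variant) had the strongest MED30 summits with a TATAAA in the window, and all 3 also carried MYC.
H4C15, chr1:149861177-149861277, minus strand: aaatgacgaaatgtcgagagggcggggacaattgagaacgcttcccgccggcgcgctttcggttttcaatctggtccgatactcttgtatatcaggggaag
ARL15, chr5:54310642-54310742, minus strand: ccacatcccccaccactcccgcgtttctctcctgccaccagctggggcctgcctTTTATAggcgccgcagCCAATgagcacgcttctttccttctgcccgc
KLF2, chr19:16324650-16324750, plus strand: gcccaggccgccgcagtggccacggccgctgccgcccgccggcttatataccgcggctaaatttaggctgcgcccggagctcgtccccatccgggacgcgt
EIF4A2, chr3:186783490-186783590, plus strand: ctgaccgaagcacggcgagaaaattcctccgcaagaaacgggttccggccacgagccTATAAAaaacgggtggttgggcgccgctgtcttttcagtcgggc
METTL3, chr14:21511363-21511463, minus strand: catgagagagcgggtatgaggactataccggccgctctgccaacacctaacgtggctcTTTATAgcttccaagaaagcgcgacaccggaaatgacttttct
H2AX, chr11:119095452-119095552, minus strand: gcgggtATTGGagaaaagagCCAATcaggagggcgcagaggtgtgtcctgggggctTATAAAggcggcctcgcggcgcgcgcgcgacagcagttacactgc

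None of these 6 MED30 windows held a canonical E-box. MED30 fold was 9.32 at H4C15, 9.19 at ARL15, 8.97 at KLF2, 11.3 at EIF4A2, 10.4 at METTL3 and 9.73 at H2AX. At EIF4A2, METTL3 and H2AX the overlapping MYC peaks had a fold of 5.43, 5.08 and 4.11.

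Most protein-coding genes with MYC at their start also carried Mediator. A gene was counted for a protein where a member peak lay within 1 kb of its start. Of 19974 protein-coding genes, 7991 carried MYC (40.0%), 9830 MED17 (49.2%) and 8472 MED30 (42.4%). All 3 proteins were found at 6395 genes (32.0%, interval 31.4 to 32.7%). MYC with a single subunit was found at 1266 genes (6.34%), 1010 of them with MED17 and 256 with MED30. MYC with neither subunit was found at 330 genes (1.65%, 1.48 to 1.84%), of which 281 had no Mediator peak within 5 kb of the MYC peak. These counts depended on the peaks taken: in the upper 50% of each list by fold, all 3 proteins were found at 1813 genes and MYC with neither subunit at 998.

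Mediator without MYC was the more frequent of the unpaired states. MED17 and MED30 without MYC occupied 1564 genes (7.83%, 7.46 to 8.21%), and 1441 of these had no MYC peak within 5 kb. A further 1118 genes (5.60%) carried a single subunit without MYC, 861 of them MED17 and 257 MED30, which brought Mediator without MYC to 2682 genes (13.4%). The remaining 9301 genes (46.6%) carried none of the 3. In 6357 of the 6395 genes with all 3 (99.4%), the 3 proteins had peaks within 1 kb of the same annotated start. Where strand was not known, this point was either end of the gene. Neighbouring genes can share a peak: for 26.3% of genes with MYC, 25.3% with MED17 and 27.1% with MED30, the strongest peak was also counted for another gene.

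**Figure D1:**
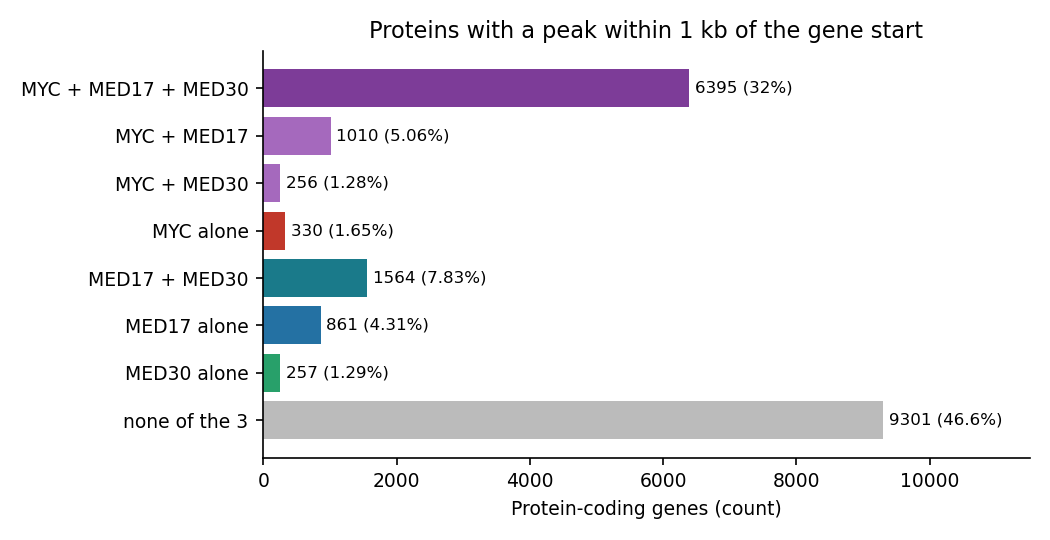
Number of protein-coding genes (horizontal axis, count) by the set of proteins with a peak within 1 kb of the gene start, with the share of all 19974 genes in brackets. The group with all 3 holds 6395 genes, MYC alone 330, and MED17 with MED30 but no MYC 1564.

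MYC peaks without Mediator were the weaker ones. Median MYC fold was 4.77 at genes with all 3 proteins (quartiles 4.01 and 5.98, median pileup 25 fragments), 4.39 at genes with MED17 as the only subunit, 4.35 with MED30 as the only subunit and 4.14 at genes with MYC alone (3.61 and 4.77, pileup 17). Mediator peaks without MYC were weaker too. Median MED17 fold was 5.34 at genes with all 3, 5.00 at genes with both subunits and no MYC and 4.68 at genes with MED17 alone. Median MED30 fold was 5.17, 4.84 and 4.39 in the same order. The quartiles of these classes overlapped.

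The genes at which all 3 lists ranked highest were led by SRSF6, which encodes a splicing factor, with folds of 13.2 for MYC, 10.4 for MED17 and 10.7 for MED30. Its MYC peak covered chr20:43457745-43458588 (hg38), and the MYC summit lay 54 bp from the nearer Mediator summit. RPS19 and RPS23, which encode proteins of the small ribosomal subunit, had MYC folds of 11.5 and 11.9, MED17 folds of 8.75 and 7.93 and MED30 folds of 9.14 and 9.0. HSP90AB1, a cytosolic chaperone gene, had folds of 11.3, 7.78 and 9.40 in the same order. CCT2, a chaperonin subunit gene, had 9.29, 10.5 and 7.67, and CYCS, the cytochrome c gene, had 8.95, 8.14 and 10.6. PPIA (cyclophilin A) and RNF220 (a ubiquitin ligase) completed the genes whose 3 peaks met. MATR3, a nuclear RNA-binding protein gene, ranked among them although its strongest MYC summit and the nearer of its strongest Mediator summits lay 19620 bp apart.

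Genes with MYC and no Mediator peak within 5 kb had more modest MYC peaks. The strongest were FGF11 (a fibroblast growth factor family gene) with a MYC fold of 8.16, ZNF331 with 7.84 and SCFD2 with 7.76. ERI3 followed with 7.30, ULBP1, a ligand of an immune receptor, with 6.85, MIPEP, a mitochondrial peptidase gene, with 6.76, and SCAP, the escort protein of the sterol-regulated SREBP factors, with 6.59. HBQ1, GPR176 and BLK had 6.51 to 6.58. For HBQ1 and BLK the strand was not known here and the peak may lie past the end of the gene. All 10 lay between the 86.5 and the 94.9 percentile of MYC peaks by fold.

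Strong Mediator peaks were also found at genes without MYC. SDC4, a cell-surface proteoglycan gene, had a MED30 fold of 12.8 and a MED17 fold of 7.30, with a MED30 peak at chr20:45348060-45348757. TMBIM6, an inhibitor of cell death in the endoplasmic reticulum, had 11.02 and 7.70. TANK, an adaptor in NF-kappaB and interferon signalling, had 8.21 and 8.90, and MAP2K4, a kinase upstream of JNK, had 7.92 and 8.56. STXBP3 had a MED30 fold of 10.3 with a MED17 fold of 7.49, TJAP1 had 7.81 and 8.64, CABYR had 8.69 and 7.59, and ERICH6 had 8.79 and 7.42. LGMN (10.99 and 7.47) was counted without a known strand. None of these genes had a MYC peak within 5 kb of the Mediator peaks.

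The gene lists differed widely in how they divided between these states. All 25 ribosome biogenesis genes carried MYC (against 40.0% of all genes), and 22 carried all 3 proteins (88%, against 32.0%). Their median MYC fold was 8.16, against 4.67 over all genes with MYC. NOLC1, NOP56 and NPM1, which act in the nucleolus, had MYC folds of 9.47, 8.16 and 11.3. PES1 and GAR1, at 14.0 and 11.9, carried MED17 and no MED30. Of 86 cytosolic ribosomal protein genes, 81 (94.2%, against 32.0% of all genes) carried all 3, with a median MYC fold of 8.13. Among the others, RPS18 and the tissue-restricted copies RPL10L and RPL39L had none of the 3 proteins, and RPL3L had both subunits but no MYC. Median MED17 fold was 5.57 at ribosomal protein genes and 5.21 at ribosome biogenesis genes, against 5.18 over all genes with MED17. Median MED30 fold was 7.51 and 5.78 against 5.05. 

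Other housekeeping lists are given beside the 32.0% of all genes with all 3 proteins. Translation initiation factors had all 3 at 42 of 55 genes (76.4%), led by EIF4A1 (MYC 9.63, MED17 6.03, MED30 8.83) and EIF5A (11.3, 10.1 and 5.53). EIF2AK4, the amino acid sensing kinase, carried MYC alone, and EIF4EBP2 carried both subunits without MYC. Mitochondrial ribosomal protein genes had all 3 at 54 of 77 (70.1%), with MYC folds of 13.3 at MRPL15 and 14.0 at MRPL3. Another 8 of them (10.4%, against 7.83% of all genes) had both subunits without MYC, MRPL9 and MRPS31 among them. Nucleotide synthesis genes had all 3 at 20 of 24 (83.3%), led by MTHFD2 (8.47, 7.23 and 9.03), whereas RRM2 and SHMT1 carried Mediator without MYC. Proteasome genes had all 3 at 34 of 48 (70.8%), glycolysis genes at 12 of 16 and cholesterol synthesis genes at 14 of 24 (58.3%).

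Heat shock and chaperone genes had all 3 proteins at 20 of 22 (90.9%, against 32.0% of all genes) and had a median percentile by fold of 72.7 in MYC and 89.6 in MED30. Median MED30 fold was 6.78, against 5.05 over all genes with MED30, while median MYC fold was 5.37 against 4.67. HSP90AA1, the stress-inducible HSP90 gene, had a MED30 fold of 12.2 beside a MYC fold of 4.45, and DNAJB1, a co-chaperone gene, 10.1 beside 3.66. The chaperonin genes CCT2, CCT4 and CCT5 had MYC folds of 9.29, 8.55 and 9.67, with MED30 folds of 7.67, 6.86 and 5.25. PGK1, a glycolytic gene, had a like order of ranks, with folds of 6.68 for MYC, 11.4 for MED17 and 16.8 for MED30.

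Replication-dependent histone genes were the reverse case of ribosome biogenesis. Of 69, 42 (60.9%) carried both subunits without MYC, against 7.83% of all genes, and 13 (18.8%) carried all 3, against 32.0%. Of the histone genes with any of the 3 proteins, 77.2% lacked MYC, against 25.1% of all such genes. Over the histone genes with a peak, median MED17 fold was 4.09, below the 5.18 of all genes with MED17. Their median MED30 fold was 5.70, above the 5.05 of all genes with MED30. Among the highest members, H4C3 had a MED30 fold of 12.3 and a MED17 fold of 6.91, and H4C8 8.33 and 5.09. Histone genes lie in clusters and share peaks: the 56 with MED17 rested on 36 distinct strongest peaks, the 56 with MED30 on 38 and the 13 with MYC on 8.

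Lists tied to signalling and cell state were set beside the 25.1% of all genes with any of the 3 proteins that lacked MYC. Of 11 mesenchymal genes with any of the 3, 7 (63.6%) lacked MYC, among them ZEB1 (MED17 5.20, MED30 5.99), ITGB1 (4.04 and 7.12), CD44 (4.59 and 5.62) and ITGA5 (6.60 and 3.81). ZEB1 encodes a repressor of epithelial genes, and ITGB1, ITGA5 and CD44 encode adhesion receptors. Of 14 MAPK feedback genes with any of the 3, 7 lacked MYC, including ETV5, EREG, DUSP5 and PHLDA1. EREG, a ligand of the EGF receptor, had a MED30 fold of 7.70 and a MED17 fold of 3.55. Integrated stress response genes lacked MYC in 6 of 14 (42.9%): PPP1R15A, DDIT4, CEBPB, SESN2, DDIT3 and SLC7A11. ATF4, ATF5, ASNS and SLC3A2 of the same list carried all 3. TGF-beta response genes lacked MYC at 41.2% of those with any of the 3. Immediate early genes lacked it at 28.6%. Other lists lay at or under the overall share: MYC-repressed genes at 25%, actin genes at 20.8%, NF-kappaB and hypoxia genes at 20% each, YAP and TEAD targets at 14.3% and p53 genes at 11.1%. These lists hold few genes, so each member moves the share by much.

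Among immediate early genes, 13 of 25 (52.0%, against 32.0% of all genes) carried all 3, with KLF4, SRF and BTG2 as the leading members. FOS, JUNB, IER2 and MCL1 carried both subunits without MYC, with MED30 folds of 8.53 at FOS and 8.57 at MCL1. EGR3 and NR4A1 carried MYC alone at 4.75 and 3.65. Beside the 32.0% of all genes with all 3 proteins, NF-kappaB genes had them at 10 of 21 (47.6%), p53 genes at 14 of 20 with MDM2 first (8.08, 7.68 and 7.73), and YAP and TEAD targets at 9 of 20. TGF-beta response genes had all 3 at 8 of 21 (38.1%), hypoxia genes at 8 of 19 (42.1%) and actin cytoskeleton genes at 16 of 29 (55.2%). Genes known to be repressed by MYC had all 3 at 7 of 15 (46.7%), CEBPA and TXNIP among them.

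Interferon response genes carried MYC at 3 of 26 (11.5%, against 40.0% of all genes), IRF1 and MX1 among them. Of the 13 with any of the 3, 10 had Mediator without MYC (76.9%, against 25.1% of all such genes). These included B2M (MED17 6.61, MED30 5.62), IRF3, IFI6 and IFIT1. Of the other 13, 5 lie in the major histocompatibility region of chromosome 6. In that region, between 29 and 34 Mb and leaving out olfactory receptor genes, 24 of 159 genes (15.1%) carried any of the 3 proteins, against 489 of 873 (56.0%) on the rest of the chromosome. The lists place 33 MYC, 65 MED17 and 50 MED30 peaks on alternate copies of chromosome 6 sequence, which are not members. RPS18, HSPA1A and HSPA1B, which had none of the 3 in the lists above, lie in the same region. Whether peaks there were assigned to the alternate copies was not tested.

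Zinc finger (ZNF) genes, the largest family examined, had all 3 proteins at 201 of 509 (39.5%, against 32.0% of all genes) and both subunits without MYC at 85 (16.7%, against 7.83%). ZNF708 (MED17 8.15, MED30 6.95) and ZNF91 (6.28 and 7.36) were among the latter, and ZNF84 (MYC 7.17, MED17 7.85, MED30 7.99) led the former. Of 392 olfactory receptor genes, which are silent outside sensory neurons, a single gene carried Mediator and none carried MYC. Over all genes the shares were 51.8% for Mediator and 40.0% for MYC.

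Genes of the MYC network and of Mediator itself were described in the same way. MAX, the partner of MYC, carried all 3 (MYC 7.81, MED17 4.15, MED30 5.79), as did MGA and MXD1, which compete for MAX. MXD1 had a MYC fold of 10.5. MXI1, another competitor, carried MYC alone at 5.79, and the MYC gene carried both subunits without MYC, at 3.33 for MED17 and 3.99 for MED30. The pileup at these summits was 38 and 48 fragments, above the list medians of 23 and 21. Fold is taken over the local background, so these low folds are not low pileups. Of 33 Mediator genes, 15 carried all 3 (45.5%, against 32.0% of all genes) and 10 both subunits without MYC (30.3%, against 7.83%), among them MED29 (7.44 and 7.42), MED31 (8.16 and 5.93) and MED12 (7.99 and 4.82). Of Mediator genes with any of the 3 proteins, 41.9% lacked MYC, against 25.1% of all such genes.

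**Figure D2:**
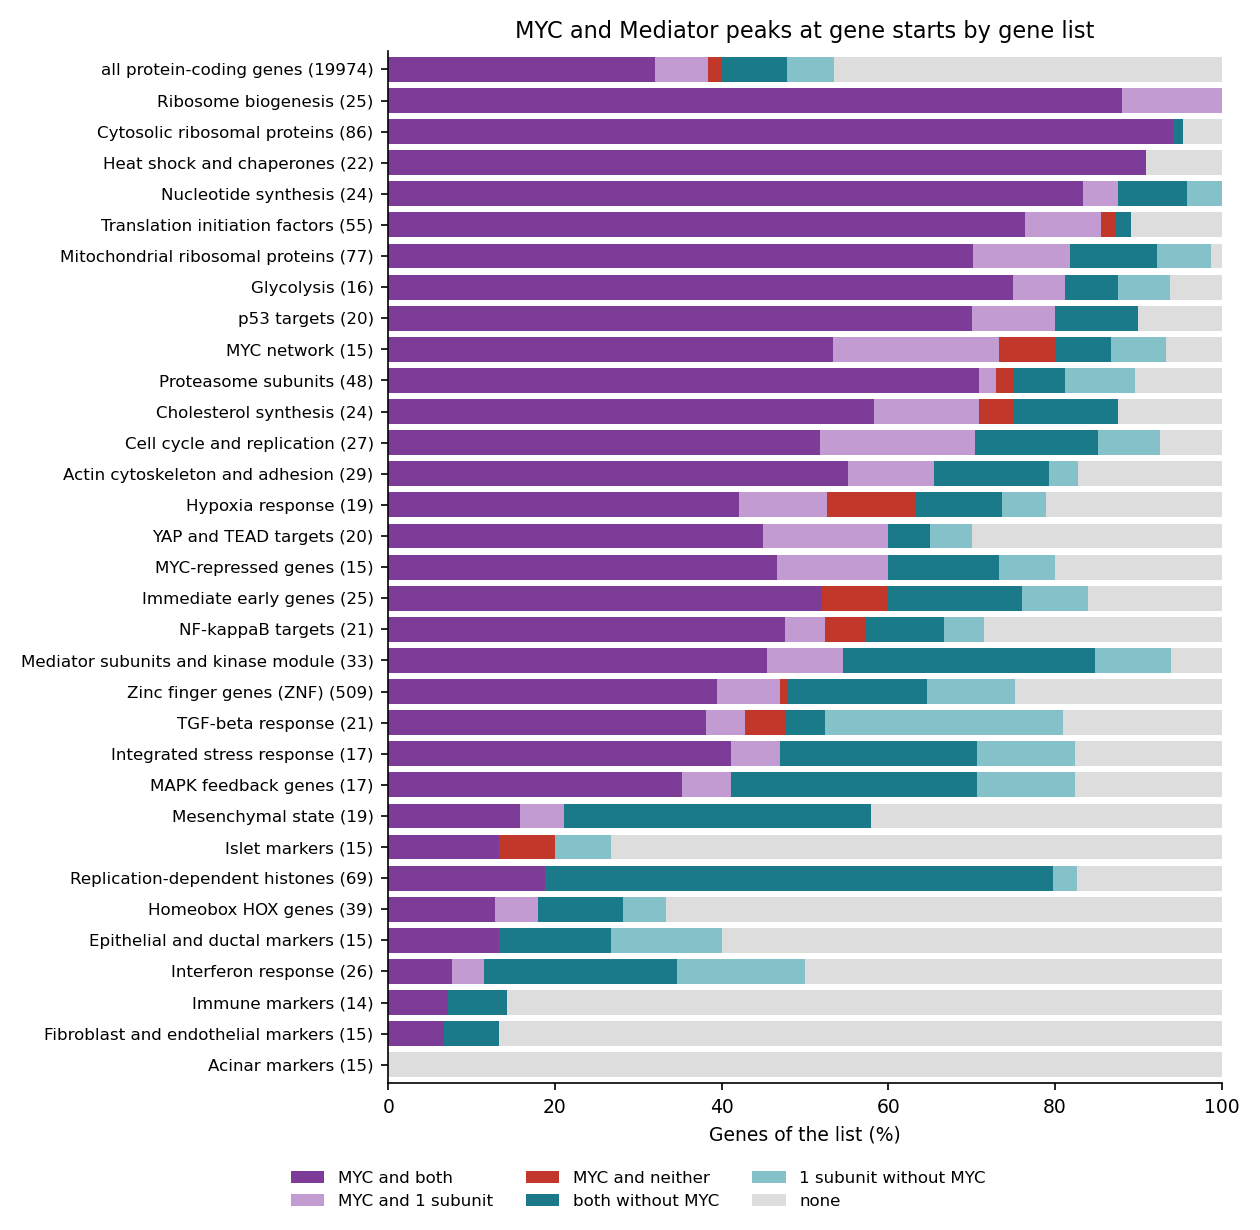
Share of the genes of each list (horizontal axis, %) by the proteins with a peak within 1 kb of the gene start, with the number of genes in the list in brackets and all protein-coding genes on top. MYC with both subunits fills 94.2% of cytosolic ribosomal protein genes, and both subunits without MYC fill 60.9% of replication-dependent histone genes.

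Most MYC peaks also overlapped Mediator, but less often away from gene starts, which the count by gene does not cover. Of the 10440 MYC peaks, 8616 (82.5%, 81.8 to 83.3%) shared at least 1 bp with a MED17 or MED30 peak, and 6344 (60.8%) with both. At gene starts, where 7393 MYC peaks lay, 92.3% overlapped Mediator and 7.72% did not. Among the 3047 MYC peaks away from starts, 58.9% overlapped Mediator and 41.1% did not. Away from starts MED30 was the more frequent partner of MYC (48.5% against 45.2% for MED17), whereas at starts MED17 was (86.5% against 77.2%). In the other direction, MYC was found under 64.6% of MED17 peaks and 65.3% of MED30 peaks. The reference pair overlapped more: 79.2% of MED30 peaks shared sequence with MED17, 90.1% at starts and 53.1% elsewhere.

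Overlap with Mediator was more frequent at stronger MYC peaks. MYC peaks were ordered by fold and divided into 10 groups of equal size. In the lowest group, 54.1% overlapped MED17 (51.0 to 57.2%) and 49.2% MED30 (46.2 to 52.3%), and in the highest group 91.4% (89.5 to 93.0%) and 84.6% (82.3 to 86.7%). The share was higher at each step for both subunits. MYC peaks with neither subunit had a median fold of 3.82, a median pileup of 17 fragments and a median width of 311 bp, against 4.73, 25 and 624 bp for those with both. A wider peak has more room for an overlap, and the part of width in this difference was not tested.

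Strength itself matched only loosely. Across the 7771 MYC peaks that overlapped MED17, Spearman's rho between the fold enrichments was 0.159, and across the 7189 that overlapped MED30 it was 0.172. Across the 8543 MED30 peaks that overlapped MED17 it was 0.272. At gene starts the values were 0.123, 0.122 and 0.206, and away from starts 0.280, 0.296 and 0.462. Each value rests on 1 library for each protein, so it is a description of these lists.

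The 6395 genes with all 3 proteins were ranked by MYC fold and divided into 5 groups of 1279. Median MYC fold went from 3.53 in the lowest group to 7.58 in the highest, a range set by the ranking itself and not a measure to hold against Mediator. Median MED17 fold went from 5.12 to 5.46, and median MED30 fold from 4.97 to 5.44. The quartiles of Mediator fold overlapped broadly between all 5 groups, 4.42 to 5.98 for MED17 in the lowest and 4.77 to 6.40 in the highest. The difference in Mediator fold between the lowest and the highest group was smaller than its spread within each of them.

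**Figure D3:**
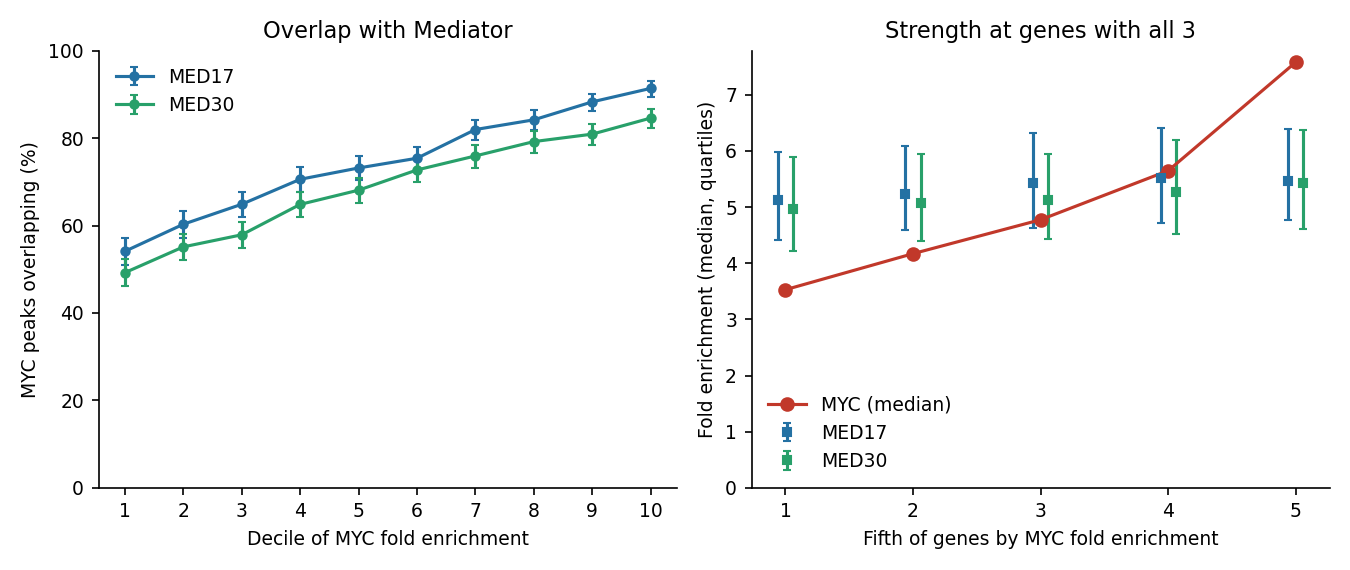
Left, share of MYC peaks overlapping MED17 or MED30 (vertical axis, %) in 10 equal groups of MYC peaks ordered by fold enrichment, with exact 95% intervals. Right, median fold enrichment of each protein in 5 groups of 1279 genes with all 3, ordered by MYC fold, with quartiles as bars for MED17 and MED30. MED17 goes from 5.12 to 5.46, and MYC from 3.53 to 7.58, a range set by the grouping.

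The tops of the lists overlapped in part. The 100 strongest peaks are a small part of the 10440 MYC, 11797 MED17 and 10792 MED30 members. By how much the overlaps below exceed those of unrelated ranks was not tested. Of the 100 strongest MYC peaks, 90 overlapped a MED17 peak and 86 a MED30 peak of any strength, but 16 overlapped a peak among the 100 strongest of MED17, and 16 among those of MED30. Of the 100 strongest MED30 peaks, 47 overlapped the 100 strongest of MED17. Among the 1000 strongest, MYC shared 142 with MED17 and 188 with MED30, and the subunits shared 248 with each other.

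Single genes show how far the ranks parted. NME1, a nucleoside diphosphate kinase gene and a known MYC target, had a MYC fold of 12.3 (99.4 percentile of MYC peaks) beside 4.17 for MED17 (24.8 percentile) and 3.70 for MED30 (13.7 percentile). MYNN, a zinc finger gene, stood at the 96.5 percentile for MYC and at 9.34 and 6.32 for the subunits. SLC6A9, a glycine transporter gene, CDKL1 and MCRIP2 showed the same order, with MYC folds of 11.1, 7.48 and 8.12. The opposite order was seen at MRPL39, a mitochondrial ribosomal protein gene, with MYC at the 3.04 percentile and the subunits at 89.2 and 98.3. CCNC, which encodes cyclin C of the Mediator kinase module, had a MYC fold of 3.26 beside 7.86 and 7.94. MYLIP, CHEK2, which shared a peak with the neighbouring gene HSCB, and LSM8 also had MYC folds of 3.05 to 3.06 with Mediator in the upper ranks.

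Where the peaks overlapped, MYC summits lay closer to MED30 summits than to MED17 summits. Over all MYC peaks the median distance to the nearest summit was 327 bp for MED17 (317 to 335) and 277 bp for MED30 (269 to 291). That order depended on the peaks taken: more MYC summits had a MED17 than a MED30 summit within 500 bp (64.7% against 62.9%) and within 1000 bp (77.8% against 71.6%). In the upper 50% of each list by fold the order turned, with 589.5 bp to MED17 and 950.5 bp to MED30, and with gene-free stretches kept the medians were 413 and 412 bp. Among overlapping peaks it was 229 bp (223 to 234) and 158 bp (153 to 163), and 54.2% and 68.5% of summits lay within 250 bp. For the subunits, fixed alike, the median from MED30 to MED17 was 294 bp (288 to 300) over all MED30 peaks and 223 bp (218 to 229) among overlapping peaks. Where a MYC peak overlapped both subunits, its summit was nearer to that of MED30 in 3858 of 6344 (60.8%, 59.6 to 62.0%), with 15 ties. The share was 60.9% at gene starts and 60.3% elsewhere. From the weakest to the strongest of 10 groups of MYC peaks, among those overlapping both, the median distance to MED30 went from 195 to 149 bp, while that to MED17 went from 210.5 to 227 bp.

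At gene starts the distance had a direction. Positions were read along the strand of the gene at 2650 genes with all 3 proteins, a single annotated start and no other protein-coding start within 2 kb. MYC summits were spread around the start, with a median of 15.5 bp downstream (6 to 26) and quartiles of -147 and 190 bp. In all 3745 genes with all 3 proteins and a single start, with neighbouring starts allowed, the MYC median was -6 bp (-16 to 4), on the other side of the start. MED30 summits centred just upstream, at a median of -18.5 bp (-25 to -12), and 47.1% lay within 100 bp of the start. MED17 summits lay downstream, at a median of 196 bp (190 to 204), and 65.3% fell 100 to 500 bp into the gene, against 28.9% for MYC and 16.4% for MED30. Only 8.60% of MED17 summits lay within 100 bp of the start.

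Gene by gene, the MED17 summit lay downstream of the MED30 summit at 2002 of the 2650 genes (75.5%), by a median of 192.5 bp, and downstream of the MYC summit at 1764 (66.6%), by a median of 129 bp. The MED30 summit lay upstream of the MYC summit by a median difference of -44.5 bp. The most frequent order along the gene was MED30, MYC, MED17 at 849 genes (32.0%), followed by MYC, MED30, MED17 at 711 (26.8%). Positions of MYC correlated with those of MED30 at a rho of 0.377 and with those of MED17 at 0.298. At the 710 such genes with both subunits and no MYC, the MED17 median was 198 bp and the MED30 median -5 bp, so the separation of the subunits was also present without a MYC peak. At 140 genes with MYC alone the MYC median was 41.5 bp (-20 to 92).

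**Figure D4:**
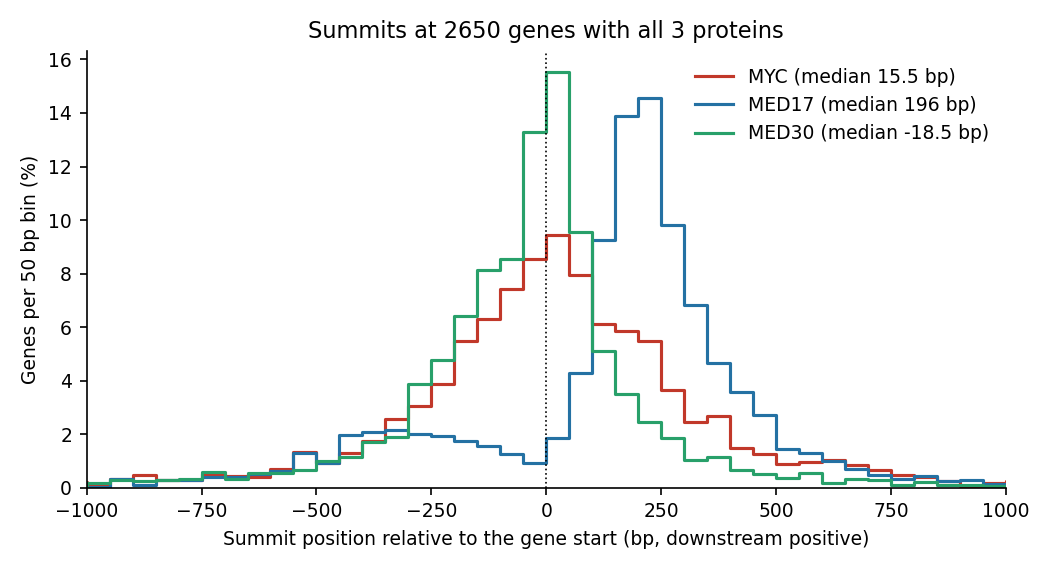
Share of 2650 genes (vertical axis, % per 50 bp bin) by the position of the summit relative to the gene start (horizontal axis, bp, downstream positive) for MYC, MED17 and MED30. MED30 peaks at the start, MYC is broader around it with a median of 15.5 bp (-6 bp with neighbouring starts allowed), and MED17 peaks downstream with a median of 196 bp.

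At some genes the strongest MYC peak and the strongest Mediator peaks lay apart. Distances here run between the strongest peaks of each protein at a gene, and a weaker Mediator peak nearer to MYC is not counted. At 6357 of the 6395 genes with all 3, the proteins each had some peak within 1 kb of 1 annotated start, or of 1 gene end where strand was not known. Among 1813 genes with all 3 peaks in the upper 50% of each list, 117 had more than 500 bp between the MYC summit and the nearer Mediator summit. ACYP2, an acylphosphatase gene, had its strongest MYC peak at chr2:53970689-53971488 (fold 5.46). The nearer of its strongest Mediator summits lay 144573 bp away, with MED17 at chr2:54115312-54116245 (fold 9.09). TBC1D14 and CHD9, a chromatin remodeller gene, followed with 77349 and 75457 bp. TPD52 and SRC had 141740 and 60522 bp, but their strand was not known here and a peak may lie at the end of the gene.

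Among summits within promoter sequence, the canonical E-box was found mainly at those of MYC. Windows of 101 bp around a summit were searched for CACGTG where they lay whole within a promoter sequence. This held for 1996 MYC, 716 MED17 and 2506 MED30 summits (19.1%, 6.07% and 23.2% of members). At the 2650 genes above, 65.3% of MED17 summits lay 100 to 500 bp downstream of the start, outside this sequence. The MED17 share therefore does not stand for MED17 summits in general. The motif was found at 262 MYC summits (13.1%, 11.7 to 14.7%), 12 MED17 summits (1.68%, 0.869 to 2.91%) and 87 MED30 summits (3.47%, 2.79 to 4.26%). In 44264 windows of the same length tiled over all promoter sequences it was found in 2.67%. The motif reads the same on both strands. Where present at a MYC summit, its centre lay a median of 15 bp from the summit.

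At MYC summits the share was higher at higher fold, from 5.28% in the lower 50% of MYC peaks to 10.6% between the 50 and 80 percentile, 23.4% between 80 and 90, 28.3% between 90 and 95 and 48.0% above 95 (61 of 127, 39.1 to 57.1%). At the subunits the intervals overlapped from the lowest to the highest group: MED30 went from 3.61% in the lower 50% to 3.87% above the 95 percentile, and MED17 from 1.30% to 0 of 17, which allows up to 19.5%. The related hexamer CACGCG, on either strand, was found at 17.6% of MYC summits and 4.93% of all windows.

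**Figure D5:**
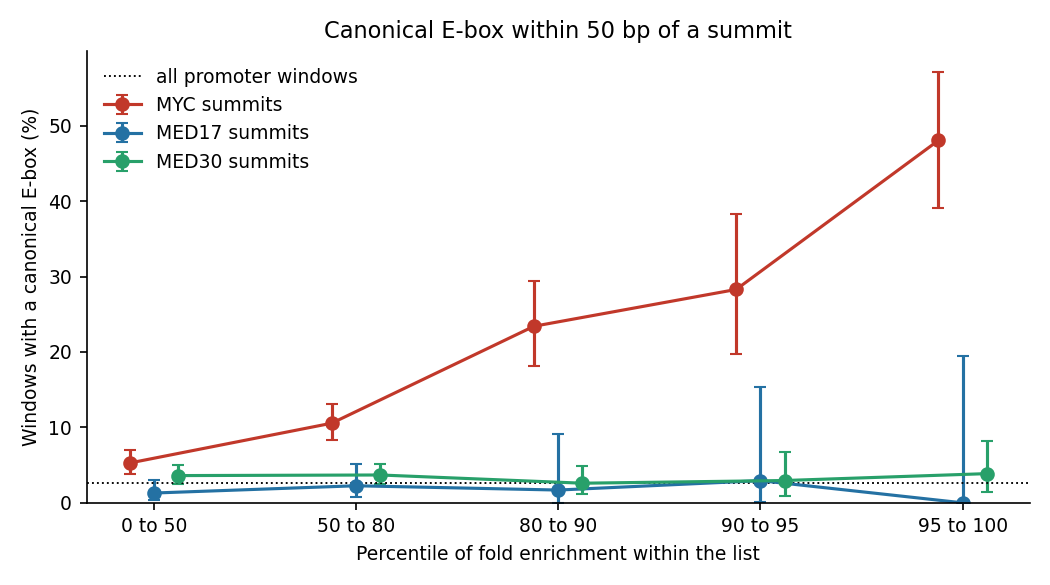
Share of 101 bp summit windows with CACGTG (vertical axis, %) by the percentile of fold enrichment within each list (horizontal axis), with exact 95% intervals and the share in all promoter windows as a dotted line. MYC goes from 5.28% to 48.0%, while MED17 and MED30 stay near the dotted line.

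The share of MYC summits with the E-box did not differ beyond counting error between those with and without Mediator. It was found at 247 of 1867 MYC summits with Mediator (13.2%, 11.7 to 14.9%) and at 15 of 129 without (11.6%, 6.66 to 18.5%). In the upper 50% of MYC peaks by fold the shares were 18.8% and 18.2% (8.19 to 32.7% for the latter). In the lower 50% they were 4.94% (3.50 to 6.75%) with Mediator and 8.24% (3.38 to 16.2%) without. For CACGCG the lower 50% had 10.7% (8.56 to 13.1%) and 18.8% (11.2 to 28.8%), and these intervals overlapped too. MYC peaks with the E-box had a median fold of 6.18 and overlapped MED30 in 77.1% (71.5 to 82.0%) and MED17 in 87.0%, against 81.3% (79.3 to 83.1%) and 87.3% for those without it, whose median fold was 4.52. In the upper 20% by fold, MED30 overlap was 81.25% (73.9 to 87.3%) with the E-box and 87.4% (83.2 to 90.8%) without. MED17 overlap there was 92.4% (86.7 to 96.1%) and 94.6% (91.6 to 96.8%).

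Seen from the Mediator side, the E-box followed MYC. MED30 summits in a peak overlapping MYC had CACGTG in 81 of 1902 windows (4.26%, 3.40 to 5.27%), and those without MYC in 6 of 604 (0.993%, 0.365 to 2.15%). Over the whole 300 bases of promoter sequence, 250 before and 50 after the start, the motif was found at 15.2% of genes with all 3 proteins (14.2 to 16.2%), 17.3% of genes with MYC alone (12.9 to 22.4%) and 5.72% of genes with both subunits and no MYC (4.53 to 7.12%). Genes with none of the 3 had it in 7.59% and all genes in 10.9%. A match of letters is a description and not a measured site.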

How the data were processed

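ChIP-seq peak lists of 3 libraries (MYC, MED17 and MED30, 1 each) were used, and the 2 MYC lists from a hairpin line of the same series were not used here. Per the submitters' processing notes, Trim Galore, Bowtie2, deepTools and MACS2 were run on the hg38 build; tool versions and the use of an input control were not given in the sources used here. The authors called peaks in each library. Each deposited peak carries a fold enrichment (a ratio), −log10 p, −log10 q, a score derived from the −log10 q, and the offset of its summit. A deposited −log10 value, fold or score is the authors' own and served to rank or filter within a list. The summit was taken as the peak start plus the deposited offset. Pileup and background were recovered from fold and −log10 p, with both values matched to 0.002 in log10 for 99.6 to 99.8% of the peaks in a list. Read totals per library are not part of the lists.

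Gene starts came from RefSeq tables for GRCh38.p14, with strand for 15812 of 19974 protein-coding genes; for the other 4162 either gene end was used. A gene carries a protein where a member peak lies within 1 kb of its start. Overlap needs 1 bp. Named genes are the 10 per class with the highest mean percentile of fold, up to 4 per gene list and class, and the extremes of rank difference and summit distance; other genes were named after their values were seen, and some that the rule takes are not reported here. Members, gene lists and this rule were chosen with earlier results of these data known. The motif searches, the positions at gene starts, the windows printed and the count of genes in the histocompatibility region were added after the data were seen. Alternatives covered peak thresholds, list lengths, gene windows, overlap rules and summit definition. Scripts (Python 3.11.15, pandas 2.3.3, scipy 1.17.1, numpy 2.4.6, matplotlib 3.10.9) were tested on simulated data with known overlaps and distances.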

Additional observations from a re-analysis of the deposited data

Results flagged for a closer look

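Peaks outside the members reached fold enrichments as high as the members did. They lie in the long gene-free stretches, on chromosome Y, on mitochondrial DNA or on contigs outside the main chromosomes, and no comparison above uses them. There were 3891 such MYC peaks (27.2% of the list), 1375 MED17 peaks (10.4%) and 1248 MED30 peaks (10.4%). Their median fold was 4.71, 5.08 and 5.00, and their highest 32.8, 24.8 and 25.9, above the highest member of each list.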

How the results depend on the processing

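Of 68 alternative values, 38 stayed within the limits set and 30 moved. Genes with both subunits and no MYC stayed between 1311 and 1641. In the upper 50% of each list by fold, genes with all 3 numbered 1813, genes with MYC and neither subunit 998, overlap was 70.4%, rho 0.0506 (MED17) and 0.130 (MED30), and the distance 589.5 and 950.5 bp, in reversed order; fewer peaks were compared. With equal list lengths overlap was 80.4%, rho with MED17 0.137 and its distance 359 bp. With gene-free stretches kept, overlap was 70.4%, rho 0.230 and 0.252, and the distance 413 and 412 bp. A reciprocal overlap of 50% gave 56.7% and a rho with MED30 of 0.243, and summits within 250 bp 63.4%. Ranking by −log10 p gave a rho of 0.217 and 0.200. Peak centres gave distances of 271 and 234 bp, and overlapping peaks alone 229 and 158 bp. In all genes with 1 start, with neighbours allowed, the median positions were -6 bp for MYC, 180 bp for MED17 and -31 bp for MED30, and peak centres gave 32 bp for MYC, so the side of the start on which MYC centred changed with the genes taken. E-box windows of 25 bp on each side gave 8.61% for MYC and 36.0% above the 95 percentile. The settings for positions at starts and E-box windows were chosen after seeing the data. The cause of these shifts was not tested.

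No paired analysis was possible because each protein has 1 library. A missing peak can be a peak under the threshold: MYC peaks without Mediator had a median pileup of 17 fragments. Strand was not known for 4162 genes.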

Other observations

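Promoter sequence differed between the gene classes in ways beyond the E-box. CCAAT was found in the 300-base promoter of 50.5% of genes with both subunits and no MYC (47.8 to 53.2%), 42.1% of genes with all 3 proteins (40.8 to 43.4%) and 42.1% of all genes. TATAAA was found in 10.5%, 7.08% and 12.4%, and in 18.6% of genes with none of the 3. Median GC content was 62.3% with Mediator and no MYC, 66.0% with all 3 and 57.0% with none. A divergent protein-coding start within 1 kb was found at 24.7% of genes with all 3 (23.5 to 25.9%), 15.0% with MYC alone (10.97 to 19.9%), 19.9% with both subunits and no MYC (17.8 to 22.2%) and 3.48% with none.

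At MED30 summits TATAAA was more frequent at higher fold, from 0.826% in the lower 50% of MED30 peaks (0.357 to 1.62%) to 11.6% above the 95 percentile (18 of 155, 7.03 to 17.7%), against 2.78% of all promoter windows. MYC summits had it in 0.701%. CCAAT was found at 21.4% of MED30 summits without MYC (18.2 to 24.8%) and 14.1% of those with MYC (12.6 to 15.8%), against 16.2% of all promoter windows.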
